A study of Mus musculus with 6 samples.

Results

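The chromatin around 48 non-Hox homeobox patterning genes was followed by ATAC-seq, in which the Tn5 transposase cuts open chromatin, as mouse embryonic stem cells left the pluripotent state. The genes belong to 14 families and are 48 of the 21887 protein-coding genes of the annotation used. A region was assigned to a gene when the midpoint of its intervals had, as the nearest protein-coding gene end within 100 kb, an end of that gene. This gave 547 of the 131410 regions of the study, and each of the 48 genes had at least 1.

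E14 is a mouse embryonic stem cell line. All cells were in N2B27 medium. In the 2iL group this medium held 3 µM CHIR99021, an inhibitor of the kinase GSK3, 1 µM PD0325901, an inhibitor of the kinase MEK, and the cytokine LIF, which together keep the cells in the naive pluripotent state. The other groups were taken 48 h and 96 h after 2iL was withdrawn. Each group had 2 samples, A and B, but 1 combined list of accessible intervals, so there is no spread between replicates and no test between groups. Whether A and B came from separate cultures is not stated, and in bulk cells a region open in few cells and one weakly open in many cannot be told apart.

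Homeobox genes encode transcription factors that bind DNA through the homeodomain, a short helical domain that often recognises sites with a TAAT core. In the embryo the families described here divide the neural tube, limbs, heart, face and endoderm into territories by being expressed in restricted domains. In embryonic stem cells many such developmental genes have CpG-rich promoters that carry Polycomb-associated histone marks while the gene is silent.

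The lists held 91228, 88810 and 78055 intervals in 2iL, at 48 h and at 96 h, covering 66.8, 64.5 and 55.6 Mb. Read depth is not given by such a list. The most frequent background at summits with a −log10 p under 290, recovered from the authors' values, was 14.2, 15.18 and 13.99 tags per position. Regions nearest to 6 naive pluripotency genes numbered 109, 76 and 52 in the 3 lists, and those nearest to 4 formative epiblast genes numbered 25, 50 and 40. For 5 general pluripotency genes the numbers were 60, 73 and 48, with a region at an end of all 5 genes in each list. Regions nearest to 4 early neural, 4 extraembryonic endoderm, 3 trophoblast and 4 fibroblast genes numbered 49, 26, 22 and 37 at 96 h and 40, 15, 21 and 27 in 2iL, and the part of such cells in the results was not tested.

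A few promoters show what changed at the start of these genes and what did not. RefSeq promoter windows of GRCm38.p6, the build of the peak lists, were found for 35 of the 48 genes, 40 windows in all, each from 250 bases before to 50 bases after an annotated start. Of these, 26 overlapped an interval in 2iL, 29 at 48 h and 30 at 96 h. The windows of En1, Dbx2 and Nkx2-5 and 1 of the 3 windows of Lhx6 were covered at 96 h but not in 2iL, which makes 4 of 40, where 3.79% of all 21263 windows were gained. None was lost, where 1.96% of all windows were. The window of Dbx1 was covered at 48 h alone. That of Barhl2 was covered in 2iL and at 96 h but not at 48 h. The first 4 sequences below are the 250 upstream bases of the promoters of En1, Dbx2, Nkx2-5 and Dbx1. The last 2, Nkx6-1 and Isl1, were covered in every list, and the promoter of Barhl2 is not printed. Each is written 5′ to 3′ on the strand of its gene, with the CG dinucleotides in capitals.
En1 (chr1:120602237-120602486, plus strand): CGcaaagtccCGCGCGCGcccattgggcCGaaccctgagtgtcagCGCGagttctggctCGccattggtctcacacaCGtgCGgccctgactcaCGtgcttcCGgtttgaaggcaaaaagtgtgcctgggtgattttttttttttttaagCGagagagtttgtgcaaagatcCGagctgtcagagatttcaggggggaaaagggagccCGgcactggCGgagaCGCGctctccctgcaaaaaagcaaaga
Dbx2 (chr15:95654772-95655021, minus strand): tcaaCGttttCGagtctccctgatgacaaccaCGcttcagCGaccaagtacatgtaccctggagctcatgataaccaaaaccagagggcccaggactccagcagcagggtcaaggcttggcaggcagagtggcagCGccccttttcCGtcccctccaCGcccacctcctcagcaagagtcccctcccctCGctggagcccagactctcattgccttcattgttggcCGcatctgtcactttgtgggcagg
Nkx2-5 (chr17:26841566-26841815, minus strand): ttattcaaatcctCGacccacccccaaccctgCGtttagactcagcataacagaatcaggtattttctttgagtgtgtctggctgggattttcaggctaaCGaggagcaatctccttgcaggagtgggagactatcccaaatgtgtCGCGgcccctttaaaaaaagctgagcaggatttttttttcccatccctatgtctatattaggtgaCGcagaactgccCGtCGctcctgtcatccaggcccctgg
Dbx1 (chr7:49636836-49637085, minus strand): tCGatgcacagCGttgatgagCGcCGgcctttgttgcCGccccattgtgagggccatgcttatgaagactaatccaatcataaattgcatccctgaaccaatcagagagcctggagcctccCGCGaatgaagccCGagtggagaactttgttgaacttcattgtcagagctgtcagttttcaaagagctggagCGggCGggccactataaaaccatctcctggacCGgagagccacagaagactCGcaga
Nkx6-1 (chr5:101664712-101664961, minus strand): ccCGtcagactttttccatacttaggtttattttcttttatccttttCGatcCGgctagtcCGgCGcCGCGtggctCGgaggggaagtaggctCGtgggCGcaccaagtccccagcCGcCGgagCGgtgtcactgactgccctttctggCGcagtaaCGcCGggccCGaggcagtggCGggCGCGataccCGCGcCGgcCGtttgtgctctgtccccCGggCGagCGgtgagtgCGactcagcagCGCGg
Isl1 (chr13:116309689-116309938, minus strand): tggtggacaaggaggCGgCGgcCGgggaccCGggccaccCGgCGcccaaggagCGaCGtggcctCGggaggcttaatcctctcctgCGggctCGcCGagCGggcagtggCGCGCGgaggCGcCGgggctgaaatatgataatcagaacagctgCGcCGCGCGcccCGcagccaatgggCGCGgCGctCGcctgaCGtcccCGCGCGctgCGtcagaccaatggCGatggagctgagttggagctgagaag
The promoters of En1, Dbx2, Nkx2-5 and Dbx1 held 19, 9, 8 and 12 CG dinucleotides in these 250 bases, and that of Barhl2 held 36. The promoters of Nkx6-1 and Isl1 held 30 and 33, whereas that of Lhx8, also covered in every list, held 4. The printed promoters are thus examples and give no contrast between changing and constant promoters. Over the whole 300-base windows the median number was 18 in the 40 windows of these genes and 13 in all windows, and the median GC content was 61% and 56.3%. In the 25 windows covered in all 3 lists the median was 22 CG dinucleotides, and in the 9 never covered it was 14. Over all promoters the corresponding medians were 22 and 2. The palindrome TAATTA, searched on both strands, was found in 2 of the 40 windows (5.0%) and in 4.53% of all windows. A match is a description of these letters and not a binding site.

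Around the 48 genes more regions were listed after 2iL withdrawal, while the whole list became shorter. The genes had 290 regions in 2iL, 402 at 48 h and 409 at 96 h. Their intervals made up 0.324%, 0.465% and 0.541% of the 3 lists. A region is called gained when it is in the later list and overlaps nothing in the earlier one, and lost in the reverse case. At 96 h against 2iL, 195 of the 409 regions of the 96 h list were gained, or 47.7% (exact binomial 95% interval 42.7 to 52.6), where 35.5% of all regions were. Of the 290 regions of the 2iL list 76 were lost, or 26.2% (21.2 to 31.7), where 44.9% of all regions were. Gains minus losses came to 119 regions at these genes and to -13120 over all regions. These intervals, here and below, cover counting error alone and treat neighbouring regions as independent.

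Most of this came in the first 48 h. At 48 h against 2iL, 173 of 402 regions were gained, or 43.0% (38.1 to 48.0), where 31.2% of all regions were. In the same step 61 of 290 were lost, or 21.0% (16.5 to 26.2), where 33.2% of all regions were. Between 48 h and 96 h 97 of 409 were gained, or 23.7% (19.7 to 28.1), where 21.2% of all regions were. In that step 90 of 402 were lost, or 22.4% (18.4 to 26.8), where 30.7% of all regions were. Gains minus losses in this step were 7, but 56 with lists trimmed to equal length and -11 with every region within 50 kb of a member end counted. Of the 173 regions gained at 48 h, 111 were still present at 96 h, or 64.2% (56.5 to 71.3), where 49.8% of all regions gained at 48 h were. The 2 comparisons with 2iL share the 2iL list, and the 2 with 48 h share the 48 h list.

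**Figure D1:**
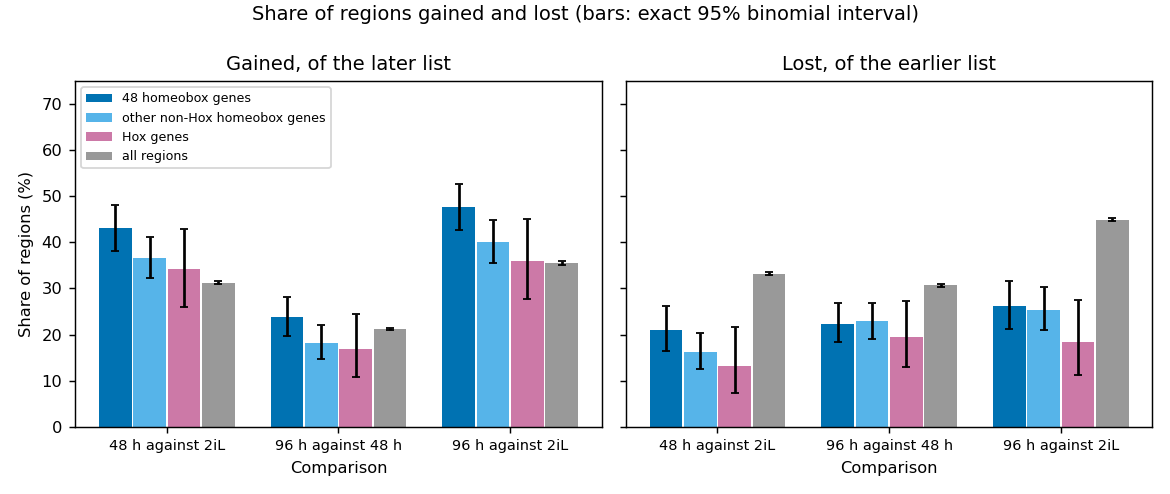
Percentage of regions gained and lost in each comparison, for the 48 genes, the other non-Hox homeobox genes, the Hox genes and all regions. Bars are the shares in percent with exact binomial 95% intervals as error bars, and at 96 h against 2iL the 48 genes sit at 47.7% gained and 26.2% lost, with all regions at 35.5% and 44.9%.

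Followed over all 3 lists, 201 of the 547 regions (36.7%) were present throughout, where 35.9% of all regions were. A further 111 (20.3%) appeared by 48 h and were kept, where 10.4% of all regions were. There were 84 (15.4%) at 96 h alone, where 10.5% of all regions were, and 62 (11.3%) at 48 h alone, where 10.5% were. Regions of the 2iL list alone numbered 48 (8.78%), where 20.8% of all regions were of that kind. The remainder were 28 (5.12%) in 2iL and at 48 h, where 10% of all regions were, and 13 (2.38%) in 2iL and at 96 h, where 1.95% were. Thus the 2iL-specific class was small at these genes and the class gained early and kept was large, each set against the whole list.

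The other homeobox genes give a scale for these numbers. For 70 other non-Hox homeobox genes, 177 of 441 regions of the 96 h list were gained against 2iL, or 40.1% (35.5 to 44.9), and 90 of 354 were lost, or 25.4% (21.0 to 30.3). For 39 Hox genes, 45 of 125 were gained, or 36.0% (27.6 to 45.1), and 18 of 98 were lost, or 18.4% (11.3 to 27.5). Both groups thus had more gains than losses. Their intervals overlapped those of the 48 genes for the shares gained as well as for the shares lost. Of all regions 35.5% were gained and 44.9% lost, so the share gained at Hox genes was close to that of all regions.

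Counted by gene, 34 of the 48 had more regions at 96 h than in 2iL, or 70.8%, where 24.5% of the 18246 genes with a region did. Among the 8574 genes with at least 5 regions, which resemble these genes more in number, 28.9% did. Of the other non-Hox homeobox genes with a region 42 of 69 did (60.9%), and of the Hox genes 19 of 38 (50%). There were 7 with fewer, or 14.6%, where 44.8% of all genes with a region and 57.8% of those with at least 5 had fewer, and 7 with the same number. At 48 h against 2iL, 39 of 48 had more, where 32.9% of all genes did, and 6 had fewer, where 33.3% did. From 48 h to 96 h 21 had more, where 17.2% of all genes did, and 22 had fewer, where 43.1% did. The median gene of the 48 had 5 regions in 2iL, 7 at 48 h and 8 at 96 h. There were 14 genes (29.2%) that gained at least 1 region at 96 h against 2iL and lost none, where 14.8% of all genes with a region and 9.67% of those with at least 5 did.

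**Figure D2:**
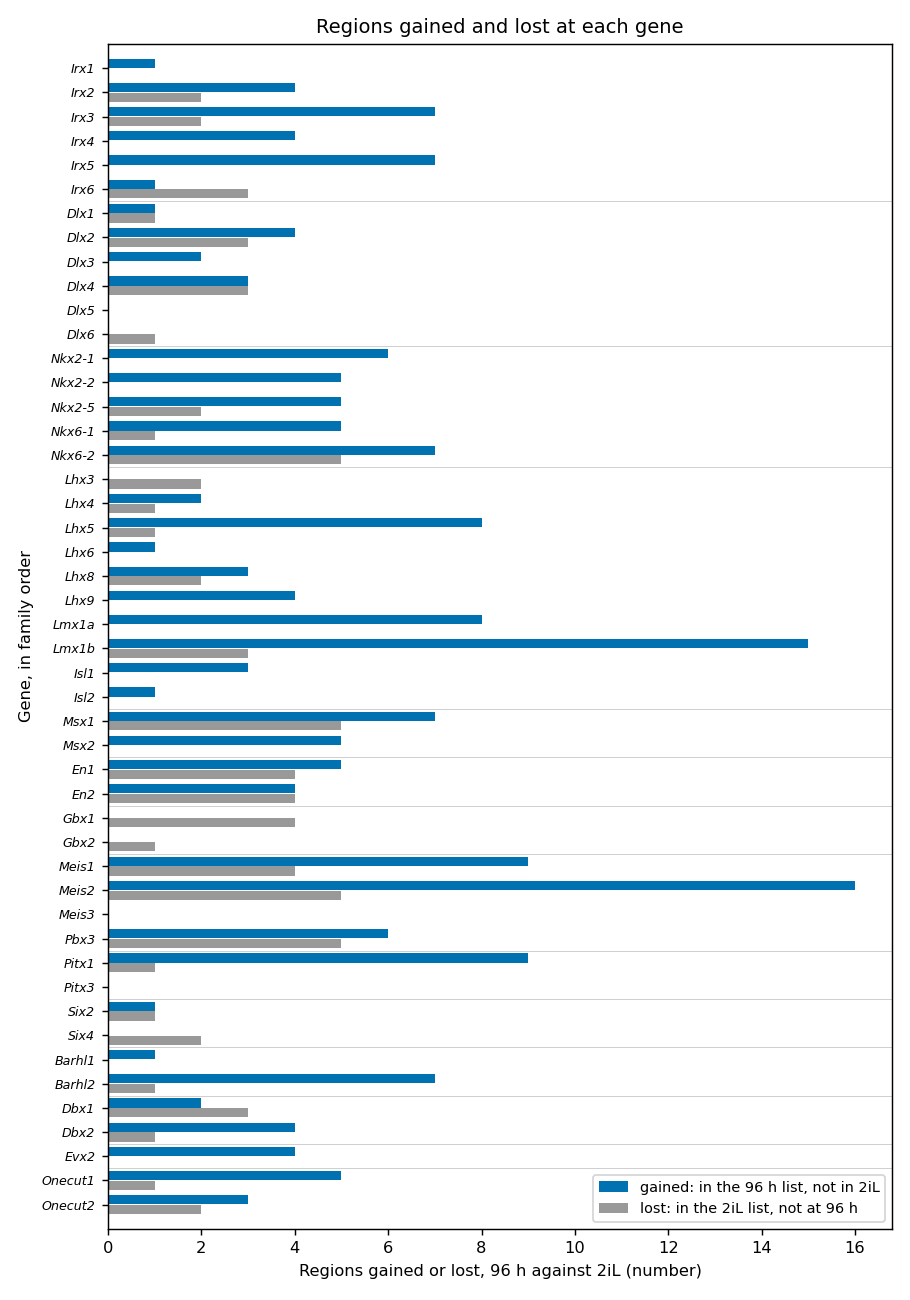
Number of regions gained and lost at each of the 48 genes at 96 h against 2iL, in family order. Meis2 and Lmx1b have the longest bars for gains, 16 and 15 regions, and Gbx1 has 4 losses with no gain.

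By family, 12 of the 14 had more regions at 96 h than in 2iL, and the Gbx and Six2/Six4 pairs had fewer. The difference was only 1 region for the Engrailed genes and 2 each for the Dlx and Dbx genes. With every region within 50 kb of a member end counted, the sign turned for the Dbx pair (-2) and for Six2/Six4 (2). Above the median of each list by −log10 p, gains minus losses were 0 for the Pitx and Gbx pairs and Evx2. They were then 1 for the Iroquois, Dlx, Barhl and Onecut genes. Between 48 h and 96 h 8 families had more and 6 fewer. For the single families and genes, numbers and folds given as 3 values belong to the 2iL, 48 h and 96 h lists in this order, and gains and losses without a named comparison are those at 96 h against 2iL.

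**Figure D3:**
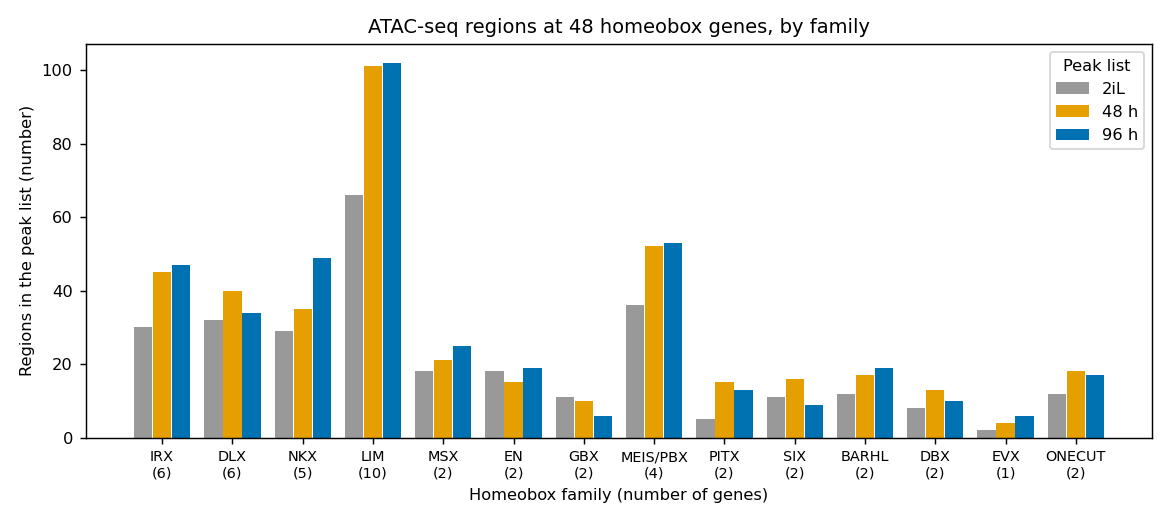
Number of regions nearest to the genes of each family in the 2iL, 48 h and 96 h lists. The LIM family has the most in each list, 66, 101 and 102, and the Gbx and Six2/Six4 pairs end at 6 and 9 regions, below their 11 and 11 in 2iL.

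The LIM homeodomain genes, which specify classes of neurons and parts of the limb, pituitary and heart, held the most regions. Their 10 genes had 66 regions in 2iL, 101 at 48 h and 102 at 96 h. At 96 h against 2iL 45 of 102 were gained, or 44.1% (34.3 to 54.3), and 9 of 66 were lost, or 13.6% (6.43 to 24.3). The interval for gains includes the 35.5% of all regions, and that for losses lies below their 44.9%. Of the 10 genes 9 had more regions at 96 h, and Lhx3 fewer.

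Lmx1b (chr2:33560965-33641208, minus strand), which patterns the dorsal limb and specifies serotonergic and midbrain dopaminergic neurons, had 16, 30 and 28 regions in 2iL, at 48 h and at 96 h. At 96 h 15 were gained and 3 lost, 11 of the 15 were already listed at 48 h, and 6 lay inside the gene. The sequence covered at this gene was 11.6 kb in 2iL, 22.3 kb at 48 h and 20.9 kb at 96 h. Thus most of the additional open sequence at this gene was already listed at 48 h.

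Lmx1a (chr1:167688230-167848741), which acts in the roof plate and in midbrain dopaminergic progenitors, had 11, 14 and 19 regions. All 11 of the 2iL list were kept at 96 h and 8 were gained, 6 of them inside the gene. Unlike Lmx1b, most gains here came after 48 h. The authors' fold enrichment over background of 3 of the gains inside the gene was 12.2, 12.2 and 10.3 at 96 h, at 12, 66.7 and 73.7 kb from the 5′ end, and these were absent at 48 h.

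Lhx5 (chr5:120431886-120441457), a regulator of forebrain and hippocampal development, had 5, 13 and 12 regions, with 8 gained and 1 lost at 96 h. The gains included 5 intergenic regions between 22.0 and 92.8 kb beyond the lower-coordinate end, all present at 48 h. At the most distant of these (chr5:120337731-120339264) the fold was 8.78 at 96 h and 15.6 at 48 h. Its 3 regions within 1 kb of an end were kept in all lists.

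Lhx4 (chr1:155698031-155751726, minus strand), needed in the pituitary and in motor neurons, had no region within 1 kb of an end in 2iL. A region at its 5′ end (chr1:155750497-155751171) had a fold of 12.2 at 96 h and 7.97 at 48 h. The promoter window of Lhx4 lies elsewhere (chr1:155741978-155742277) and was covered in every list. Lhx6, a gene of cortical interneurons, gained a region at its 3′ end (chr2:36081228-36081964) with a fold of 16.7 at 96 h and 11.1 at 48 h. In the fold ranks of the 96 h list these regions stood at percentiles 69.5 and 86.3, the highest of the regions gained at gene ends.

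The related Lhx9, of the gonad and limb, had 4, 6 and 8 regions, and Isl1, of motor neurons and cardiac progenitors, had 3, 5 and 6. Neither lost a region at 96 h against 2iL. Lhx8, of basal forebrain cholinergic neurons, had 7, 6 and 8 regions, with 3 gains and 2 losses. Lhx3, the paralog of Lhx4, had 8, 9 and 6 regions, with no gain and 2 losses.

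The NKX genes, which specify ventral neural tube, heart, lung, thyroid and pancreas, continued to gain regions after 48 h. Their 5 genes had 29 regions in 2iL, 35 at 48 h and 49 at 96 h. At 96 h against 2iL 28 of 49 were gained, or 57.1% (42.2 to 71.2), and 8 of 29 were lost, or 27.6% (12.7 to 47.2). The interval for gains lies above the 35.5% of all regions, and that for losses includes their 44.9%. All 5 genes had more regions at 96 h than in 2iL.

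Nkx2-1 (chr12:56531935-56536908, minus strand), the determinant of thyroid, lung and ventral forebrain, had 4, 8 and 10 regions. It gained 6 and lost none at 96 h. One of the gains, at its 5′ end (chr12:56535579-56536451), had a fold of 4.19 at 96 h and 4.13 at 48 h. In 2iL no region stood within 1 kb of either end, and the promoter window of Nkx2-1 was covered in no list.

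Nkx2-2, which acts in the ventral neural tube and pancreatic islets, had 7, 8 and 12 regions with 5 gains and no loss. Its gain with the highest fold (chr2:147254134-147254737), 59.0 kb from the gene, had a fold of 13.3 at 96 h and 18.2 at 48 h. The 3 gains inside the gene were weak, with folds of 2.37, 2.95 and 2.14 at 96 h. Nkx2-5, the cardiac regulator whose promoter is printed above, had 5, 8 and 8 regions.

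Nkx6-1, of motor neuron progenitors and pancreatic beta cells, had 4, 5 and 8 regions, with 5 gains and 1 loss. Its promoter interval (chr5:101664135-101665622) was present throughout, with folds of 16.7, 11.9 and 11.8. Nkx6-2, a paralog in the same ventral domain, had 9, 6 and 11 regions, with 7 gains and 5 losses. Of its 16 regions in all, 11 lay inside a neighbouring gene.

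The Iroquois genes, which pattern the neural plate, heart and limb, lie in 2 clusters of 3 genes on chromosomes 13 and 8. Their 6 genes had 30, 45 and 47 regions. At 96 h against 2iL 24 of 47 were gained, or 51.1% (36.1 to 65.9), and 7 of 30 were lost, or 23.3% (9.93 to 42.3). Of all regions 35.5% were gained and 44.9% lost, each just outside these intervals. Above the median of each list by −log10 p, only 3 of 19 Iroquois regions were gained and 2 of 16 lost. Of all regions above the median, 5847 of 38854 were gained and 12264 of 45446 lost. Irx6 had fewer regions at 96 h and the other 5 genes had more.

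Irx5 (chr8:92357796-92361456) had 5, 13 and 12 regions, with 7 gains and no loss at 96 h. Its 5 regions of the 2iL list included 1 at its lower-coordinate end with folds of 4.12, 4.97 and 6.14. Of the 7 gains 5 lay more than 10 kb away, the strongest of them 90.7 kb beyond the gene (chr8:92451908-92452534) with a fold of 13.1 at 96 h and 8.84 at 48 h. Irx3, its neighbour in the cluster, had 5, 6 and 10 regions, with 7 gains and 2 losses, and 5 of the 7 were absent at 48 h. Irx6, the third gene of this cluster, had 5, 6 and 3 regions, with 1 gain and 3 losses.

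On chromosome 13, Irx1 had 3, 4 and 4 regions, and its gain near the lower-coordinate end (chr13:71958632-71958979) had a fold of 2.96 at 96 h and 2.92 at 48 h. Irx4, a gene of the heart ventricle, had 5, 8 and 9 regions with 4 gains and no loss. Irx2 had 7, 8 and 9 regions with 4 gains and 2 losses. A region at the 5′ end of Irx2 (chr13:72623786-72624224) was absent in 2iL and had a fold of 3.46 at 96 h and 3.01 at 48 h. The promoter window of Irx2 lies elsewhere (chr13:72628570-72628869) and was covered in every list. Irx2 also held one of the 3 losses with the highest fold, 41.7 kb from its 3′ end (chr13:72675581-72676302), with a fold of 14.3 in 2iL.

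The MEIS and PBX genes encode TALE homeodomain proteins that bind DNA together with Hox proteins. Their 4 genes had 36, 52 and 53 regions. At 96 h against 2iL 31 of 53 were gained, or 58.5% (44.1 to 71.9), and 14 of 36 were lost, or 38.9% (23.1 to 56.5). Both intervals overlap those of the LIM genes. The interval for losses includes the 44.9% of all regions, and that for gains lies above their 35.5%.

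Meis2 (chr2:115861264-116067537, minus strand) had 13, 20 and 24 regions, with 16 gains and 5 losses at 96 h. All 5 losses and 7 of the gains lay inside the gene. The gain with the highest fold at any of the 48 genes belonged to it (chr2:116103439-116104144), 36.2 kb upstream of the 5′ end, with a fold of 20.3 at 96 h and 11.9 at 48 h. Within 1 kb of its ends it gained 3 short regions at 96 h alone, with folds of 3.43, 3.63 and 2.37.

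Meis1, a regulator of blood stem cells, had 11, 15 and 16 regions, with 9 gains and 4 losses. Pbx3 had 10, 14 and 11 regions, with 6 gains and 5 losses. Pbx3 also had a region that was strong throughout (chr2:34249267-34250315), inside the gene, with folds of 27.3, 28.9 and 26.8. Meis3 had 2, 3 and 2 regions, and one of them, inside the gene (chr7:16183389-16184385), had folds of 15.9, 23.4 and 26.3.

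**Figure D4:**
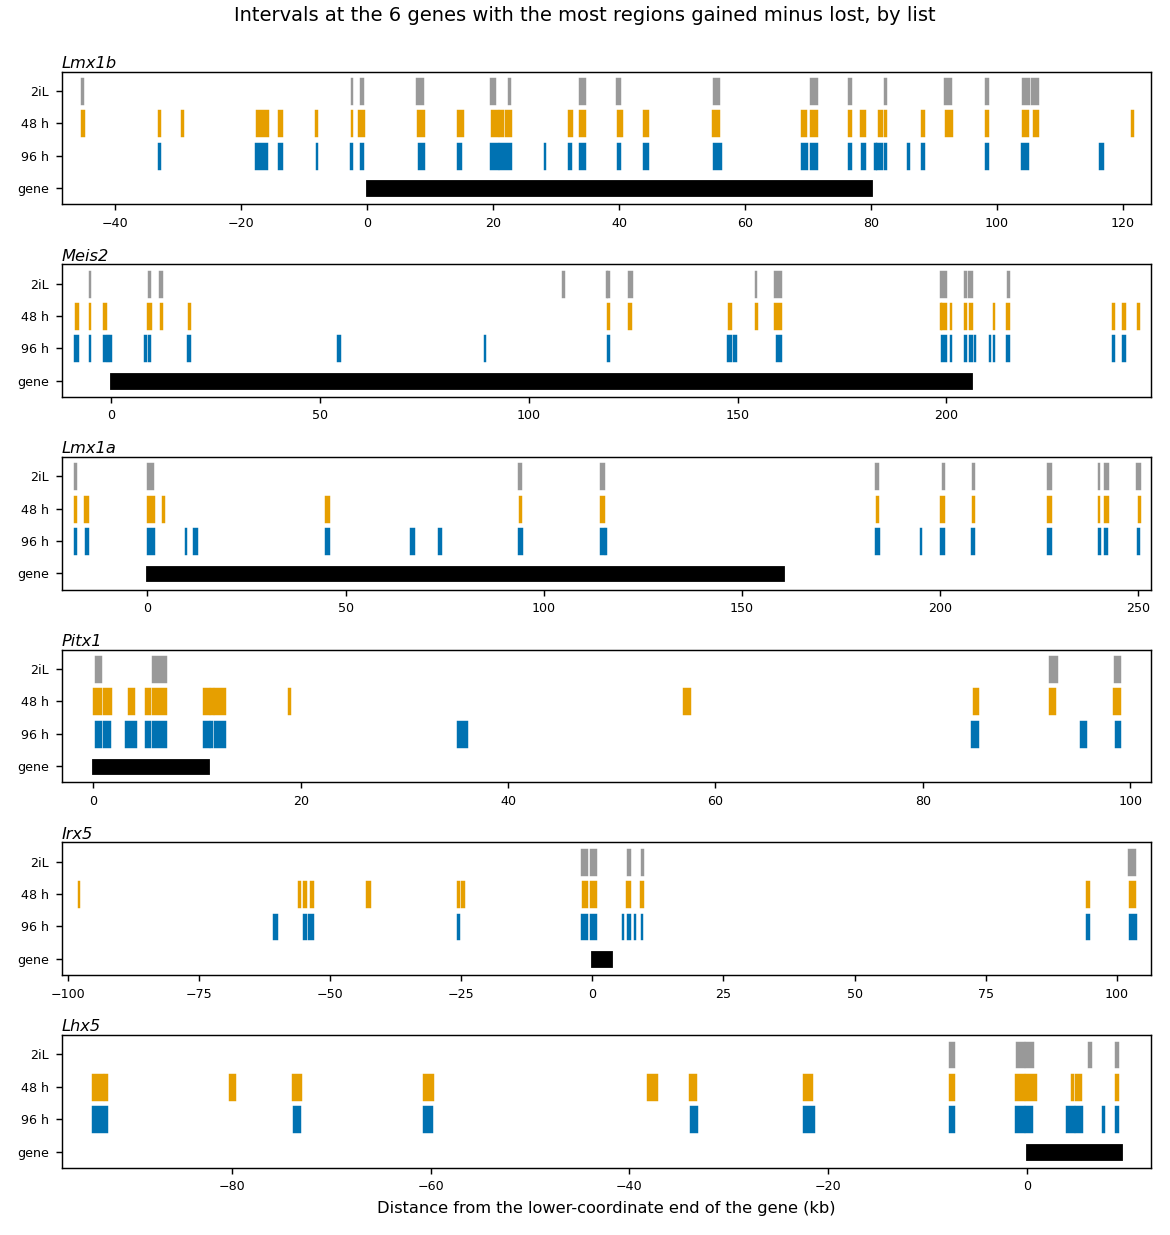
Intervals of the 2iL, 48 h and 96 h lists assigned to the 6 genes with the highest number of regions gained minus lost at 96 h against 2iL, by distance in kb from the lower-coordinate end of the gene, with the gene as a black bar. The intervals at Lmx1b form 16, 30 and 28 merged regions, with most gains listed by 48 h, whereas the gains inside Lmx1a appear mostly at 96 h.

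The remaining families were smaller. Most of their intervals included the 35.5% gained and 44.9% lost of all regions at 96 h against 2iL. The exceptions were gains at the Pitx pair (38.6 to 90.9) and losses at the Barhl (0.211 to 38.5) and Dlx genes (11.5 to 43.4). Pitx1 (chr13:55825044-55836190), which specifies hindlimb and pituitary, had 4, 13 and 12 regions, with 9 gains and 1 loss at 96 h. Of these gains 6 lay within 10 kb of an end with folds from 2.56 to 4.49 at 96 h, and the strongest, 73.9 kb away (chr13:55909693-55910403), had a fold of 13.9 at 96 h and 10.8 at 48 h. The single loss (chr13:55917173-55918014), 81.3 kb from the gene, had folds of 10.9 (48 h) and 19.9 (2iL). Pitx3, of lens and dopaminergic neurons, had 1, 2 and 1 regions.

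The BARHL genes act in sensory and spinal neurons and had 12, 17 and 19 regions in all. Barhl1 had 3, 4 and 4 of them, and its gain at the 5′ end (chr2:28917472-28918505) had a fold of 4.35 at 96 h and 2.86 at 48 h. No promoter window of Barhl1 was covered in any list. Barhl2 had 9, 13 and 15 regions, with 7 gains and 1 loss at 96 h. A gain near its 3′ end (chr5:106451715-106452275) had a fold of 6.69 at 96 h and 3.47 at 48 h. The MSX genes, of tooth, palate and skull, had 18, 21 and 25 regions. Msx1 had 13, 12 and 15, with 7 gains and 5 losses, and Msx2 had 5, 9 and 10, with 5 gains and no loss. A gain at Msx2 (chr13:53501529-53502748), 29.2 kb from its 5′ end, had a fold of 17.7 at 96 h and 4.51 at 48 h, so it was strong in the later list and weak in the earlier one.

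The Onecut genes, of liver, pancreas and motor neurons, had 12, 18 and 17 regions. Onecut1 had 7, 12 and 11, with 5 gains and 1 loss. At Onecut2, which had 5, 6 and 6 regions, one gain had a fold of 19.9 at 96 h and 10.9 at 48 h. One loss there had folds of 14.7 (48 h) and 22.8 (2iL), the highest of all losses at these genes.

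The Evx2 gene, beside the Hoxd cluster, had 2, 4 and 6 regions and lost none. A region at its 5′ end (chr2:74661608-74662115) was absent in 2iL and had a fold of 4.83 at 96 h and 3.55 at 48 h. Its other gains lay within 5.17 kb below the 3′ end, and its promoter window was covered in no list.

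The DBX genes set up interneuron classes in the spinal cord and differed from each other. Dbx2 (chr15:95623563-95654771, minus strand) had 2, 6 and 5 regions, covering 0.571, 4.70 and 3.16 kb. Its region at the 5′ end (chr15:95653559-95654986) was absent in 2iL and had a fold of 9.69 at 96 h and 8.17 at 48 h. Dbx1 had 6, 7 and 5 regions, with 2 gains and 3 losses at 96 h. Its promoter region (chr7:49636269-49636919) was listed at 48 h alone, with a fold of 3.38.

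The Engrailed genes, which mark the boundary of midbrain and hindbrain, had 18, 15 and 19 regions, with 9 gains and 8 losses at 96 h against 2iL. En1 had 9, 7 and 10 of these, and En2 had 9, 8 and 9, so their totals changed little although regions were exchanged. For both genes together, 47.4% (24.4 to 71.1) were gained and 44.4% (21.5 to 69.2) lost. These intervals include the 35.5% gained and 44.9% lost of all regions. The promoter region of En1 (chr1:120601943-120602536) was listed at 96 h alone, with a fold of 4.43. A region 88.4 kb beyond En1 (chr1:120696090-120696684) was listed at 48 h alone, with a fold of 18.1, the highest of the regions limited to that list.

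The DLX genes, of forebrain interneurons and the face, had 32, 40 and 34 regions, with 10 gains and 8 losses. The 29.4% gained (15.1 to 47.5) was below the 35.5% of all regions, though the interval includes it. The 25% lost (11.5 to 43.4) was below their 44.9%. Dlx5 did not change in number, with the same 5 regions in all lists. Dlx2 had 9, 9 and 10 regions, with 4 gains and 3 losses, and Dlx4 had 8, 12 and 8, with 3 of each. Dlx2 also had the region kept in all lists with the highest fold at 96 h (chr2:71598630-71599220), 52.2 kb from its 5′ end, with folds of 24.3, 23.5 and 28.5. Dlx1 lost a short region near its 3′ end (chr2:71534758-71534970), with a fold of 3.70 in 2iL.

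At both Gbx genes and at Six4 fewer regions were listed at 96 h than in 2iL. The GBX genes, of the anterior hindbrain and spinal cord, had 11, 10 and 6 regions, with no gain and 5 losses at 96 h. The 45.5% lost (16.7 to 76.6) was near the 44.9% of all regions. The interval for gains, 0 to 45.9, includes their 35.5%. Of the 4 Gbx regions above the median of the 2iL list by −log10 p, none was lost. Gbx1 (chr5:24504426-24526848) accounted for 4 of the losses, all inside the gene and 1 of them at an end (chr5:24504359-24505146), with folds of 3.81 (48 h) and 3.70 (2iL). Gbx2, whose product sets the position of the midbrain and hindbrain boundary, lost 1 of 4 regions. Six2 and Six4, of kidney and muscle progenitors, had 11, 16 and 9 regions, with 1 gain and 3 losses, but 6 gains and 4 losses when every region within 50 kb of an end of these genes was counted. Six2 had 7, 10 and 7 of them, with 1 gain and 1 loss. Six4 had 4, 6 and 2 of them, with 2 losses and no gain, and one lost region inside the gene (chr12:73103186-73104681) had a fold of 10.8 in 2iL.

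Where the regions lay was also counted. Of the 547 regions 73 were within 1 kb of a gene end, 205 between 1 and 10 kb, and 269 between 10 and 100 kb, and 189 (34.6%) were inside their own gene. Within 1 kb, 20 of 68 regions were gained at 96 h against 2iL, or 29.4% (19 to 41.7), where 11.5% of all regions at that distance were. In this class 3 of 51 were lost, or 5.88% (1.23 to 16.2), where 10.9% of all were. The 20 gains fell on 16 genes. Of these gains 13 (65%) were already present at 48 h, where 63.8% of all gains at gene ends were. A fold under 5 was found for 16 (80%), where 48.3% of all gains at gene ends had one, and the other 4 were at Dbx2, Lhx4, Lhx6 and Barhl2.

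Between 1 and 10 kb, 73 of 159 were gained, or 45.9% (38 to 54), where 33.3% of all were, and 24 of 110 were lost, or 21.8% (14.5 to 30.7), where 45.7% of all were. Between 10 and 100 kb, 102 of 182 were gained, or 56% (48.5 to 63.4), where 42.2% of all were, and 49 of 129 were lost, or 38% (29.6 to 46.9), where 53.8% of all were. At every distance the shares gained were above and the shares lost below those of all regions. A gene end of 39 of the 48 genes had a region within 1 kb in 2iL, of 44 at 48 h and of 43 at 96 h. Counting any interval that reached within 1 kb, at least 1 end was touched at 42, 48 and 47 genes, against 67.6%, 69.7% and 68.0% of all genes.

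The 100 kb limit fell in a populated range. In the 2iL, 48 h and 96 h lists 8, 15 and 15 intervals lay between 90 and 100 kb from a member gene that was nearest to them, and 5, 8 and 8 between 100 and 110 kb. Beyond the limit 69, 78 and 90 intervals in all had one of these genes as the nearest.

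The median fold of the regions of these genes was below that of their list. The median fold was 7.60, 6.0 and 6.26 in 2iL, at 48 h and at 96 h, against 8.29, 8.14 and 8.79 for all intervals. Of them 21.6%, 11.9% and 11.6% were in the top 25% of their list by fold. The regions gained at 96 h had a median fold of 5.60, against 6.62 for all gained regions, while 25.6% of them were above the median of the list by −log10 p, against 21.0% of all gained regions.

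Weak regions were gained and lost more often than strong ones, so the shares were also read within 4 equal bins of each list by the authors' −log10 p. From the weakest to the strongest bin of the 96 h list, 76.6%, 61.3%, 34.4% and 9.86% of 94, 119, 125 and 71 regions were gained against 2iL, where 65.6%, 46.7%, 24.3% and 5.53% of all regions were. In the 4 bins of the 2iL list 48.2%, 28.8%, 10.8% and 9.43% of 83, 80, 74 and 53 regions were lost, where 71.0%, 54.8%, 38% and 15.7% of all regions were. The differences from all regions had the same direction in each bin. In the strongest bins the intervals, 4.06 to 19.3 for gains and 3.13 to 20.7 for losses, include the value of all regions.

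**Figure D5:**
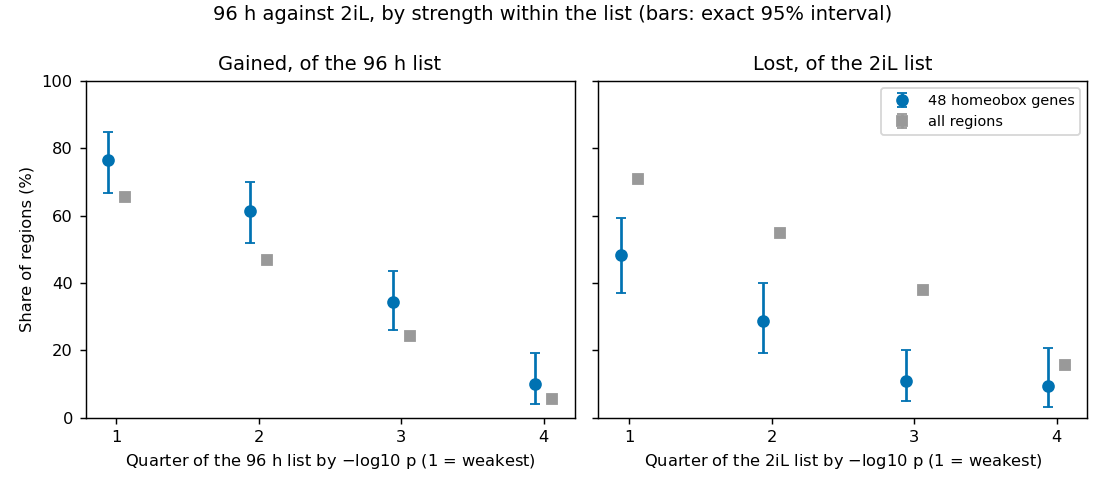
Percentage of regions gained (96 h list) and lost (2iL list) at 96 h against 2iL in 4 equal bins of the list by −log10 p, for the 48 genes and for all regions, with exact binomial 95% intervals. Gains of the 48 genes run from 76.6% in the weakest bin to 9.86% in the strongest, and losses from 48.2% to 9.43%.

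Regions kept in all 3 lists changed little in width. Over the 201 such regions the median width was 792 bp at 96 h and 736 bp in 2iL. At 96 h 26 were over 1.5 times as wide as in 2iL, or 12.9%, where 10.6% of all kept regions were, and 15 were narrower by that factor, or 7.46%, where 8.59% were. At 48 h 31 were over 1.5 times as wide as in 2iL, or 15.4%, where 10.4% of all kept regions were. Intervals over 1500 bp were 3.38%, 4.84% and 4.74% of those of these genes and 3.57%, 3.98% and 3.71% of all intervals.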

How the data were processed

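ATAC-seq was done on 6 samples, 2 in each of 3 groups. Each sample started from 100000 live cells, with 10 PCR cycles and selected fragments of 200 to 700 bp, per the labels' protocols. BWA, Picard, SAMtools, bcl2fastq 2.20.0.422 and the build mm10 appear, with no roles, per the submitters' processing notes. Not given in the sources used here are the peak caller, any Tn5 read shift and the handling of duplicates, each of which bears on which weak regions are listed. The authors deposited 1 combined list per group. The deposited fold enrichment is a linear ratio per summit, and the deposited −log10 p value is per summit too; both describe or rank regions within a list. The files state no depth.

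Regions are unions of intervals sharing at least 1 bp, made with Python 3.11.15, pandas 2.3.3 and NumPy 2.4.6. An interval took the fold of the summit whose −log10 p was highest. Exact Clopper-Pearson intervals came from SciPy 1.17.1. Gene ends and promoters came from RefSeq GRCm38.p6, in which 187 listed homeobox and marker genes were matched. No genome sequence was used, so the base composition planned for regions was computed for promoter windows. The background in tags was solved from fold and p, where the pileup came out whole within 0.02 for 100% of summits with a −log10 p under 290. Scripts were tested on simulated data.

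A gene is described singly when at least 5 of its regions differ between 2iL and 96 h, when a region within 1 kb of an end does, or when it has none; the single regions named are those with the highest fold in each class. Genes and regions named beside these were chosen after their values were seen. The genes, the families and the lists were chosen with earlier results of these data known. Each group had 1 list, so no p-value is given.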

Additional observations from a re-analysis of the deposited data

How the results depend on the processing

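The shares gained and lost and the counts of gains minus losses were computed under 7 alternatives. With the regions above the median of each list by −log10 p, the shares gained were 17.9% at 48 h against 2iL, 25.4% at 96 h against 2iL and 5.08% at 96 h against 48 h, and the shares lost 7.75%, 10.1% and 2.31%. Gains then exceeded losses by 37 at 96 h against 2iL and by 6 at 96 h against 48 h. All regions had 15.1% gained and 27.0% lost at 96 h against 2iL. Their shares gained were 10.9% at 48 h against 2iL and 4.8% at 96 h against 48 h, the latter near the 5.08% of these genes. Of all regions, 7303 of 45446 were lost at 48 h against 2iL and 3781 of 44173 at 96 h against 48 h. With a limit of 20 kb, the share gained was 18.9% at 96 h against 48 h, with 14.8% over all regions within that limit. The shares lost were then 15.4% at 48 h against 2iL, 17.6% at 96 h against 2iL and 15.8% at 96 h against 48 h (all regions within the limit 26.6%, 37.5% and 26.6%), and gains exceeded losses by 87 at 96 h against 2iL. With lists trimmed to equal length, the shares lost were 20.2% at 96 h against 2iL (all regions 39.9%) and 15.3% at 96 h against 48 h (all regions 24.9%), and gains exceeded losses by 158 and 56. With every member end within 50 kb counted, the difference at 96 h against 48 h was -11 and not 7. Among single genes and families at 96 h against 2iL, the sign was reversed for the Dbx pair (-2) and the Six2/Six4 pair (2) in that setting, for Dbx1 (1), Nkx6-2 (-2) at 20 kb, for Dbx1 (1), Irx2 (-1) and Onecut2 (-1) above the median, and for Nkx6-2 (-1) with the nearest gene body. Above the median, gains minus losses at 96 h against 2iL also shrank without reversing in several families. They were 0 for the Pitx pair, Evx2 and the Gbx pair (main setting 8, 4 and -5) and 1 for the Iroquois genes (17). They were 16 for the LIM genes (36), 5 for the NKX genes (20) and 5 for the MEIS and PBX genes (17). Among single genes, Pitx1 and Meis1 went from 8 and 5 to 0. The cause of these changes was not tested. Genes with more regions at 96 h than in 2iL numbered 30 to 36 of 48.

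No paired analysis was possible because each list combines samples A and B, and no sample was left out for the same reason. Depth per sample is unknown. A region absent from a list was not detected there, which does not show that it was closed.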
